A study of Mus musculus with 9 samples.

Results

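This section describes 10 genes of interleukin 4 (IL-4) receptor signalling in mouse macrophages: the receptor chains Il4ra, Il13ra1 and Il2rg, the kinases Jak1 and Jak3, the transcription factors Stat6, Irf4 and Klf4, and the feedback inhibitors Socs1 and Cish. They were chosen by gene symbol, and 8 of the 10 carried an annotated probe set, out of 19505 genes named on the array. Il2rg and Jak3 were matched to no named probe set and are not analysed here. Each of the 8 had a single probe set. Of these, 7 passed the filter that leaves out dim probe sets, and Il13ra1 did not.

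Macrophages were grown from the marrow of wild-type C57BL/6 mice over 7 days with macrophage colony-stimulating factor (10 ng/ml in the growth protocol, 20 ng/ml in the series text) and then received 20 ng/ml recombinant IL-4 for 24 hours in all groups, so every array shows cells under IL-4. Vehicle, LCN2 day 7 and LCN2 day 0 were each measured on 3 arrays. LCN2 (lipocalin 2) is a secreted protein that binds bacterial siderophores. The LCN2 day 7 cells received it when IL-4 was added, at a dose the labels do not give, and the LCN2 day 0 cells grew with 150 ng/ml recombinant mouse LCN2 from the start of culture. The labels do not state the age of the mice, nor if each array stands for its own mouse or culture. The p-values therefore speak of the scatter among these arrays alone, part of which may be technical.

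IL-4 binds the chain encoded by Il4ra, which then pairs with the common gamma chain (Il2rg) in blood cells or with the chain encoded by Il13ra1. The kinases bound to these chains, Jak1 and Jak3 among them, phosphorylate the receptor and recruit STAT6, which enters the nucleus and switches on genes of alternative macrophage activation, the transcription factors Irf4 and Klf4 among them. Socs1 and Cish belong to a family of cytokine-induced proteins that dampen receptor and JAK signals.

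The titles number the arrays of each group from 1 to 3, and the arrays numbered 1 stood apart in all 3 groups. What the number stands for is not stated. If the arrays of a number share a source, they are not independent replicates of it. The p-values by number then measure scatter among arrays within a number, and not scatter between such sources. The contrast of number 1 with the others was chosen because an earlier analysis of these data had shown those arrays to stand apart. Its counts and p-values describe that split and do not test it independently. With group in the model, limma called 3333 of 10042 genes (33.2%) between the arrays numbered 1 and the mean of those numbered 2 and 3, of which 1109 (11%) were higher and 2224 (22.1%) lower, and 0 genes between numbers 2 and 3 (310 at an unadjusted p under 0.05). The count was 1777 without vehicle replicate 1 and 1923 without LCN2 day 0 replicate 1. All 6 measured macrophage markers, Csf1r, Adgre1 and Itgam among them, passed the dim filter, with 2 higher and 1 lower on the arrays numbered 1, whereas 6 of 6 measured T and natural killer cell markers and 6 of 6 B and plasma cell markers lay below it. Most tested neutrophil, progenitor and monocyte markers and most proliferation genes were lower on the arrays numbered 1. Of the neutrophil and progenitor markers, 6 of 6 tested were lower on the arrays numbered 1, where the list's mean level was 5.88 to 6.71 on the log2 scale against 7.46 to 7.93 on the others, with 1 further marker (Camp) dim. Of the monocyte markers, 3 of 4 were lower (list means of 6.63 to 7.09 against 7.91 to 8.25), and of the proliferation genes, 4 of 5 (7.70 to 8.31 against 8.66 to 9.04). The 2 dendritic cell markers above the filter, Ccr7 and Itgax, were higher, while the 5 others, Flt3 and Zbtb46 among them, were dim, and the list means overlapped (5.70 to 5.86 against 5.59 to 5.84). Of the mast cell and basophil markers, 1 of 2 tested was higher, with 4 dim and list means of 4.94 to 5.32 against 4.79 to 5.02. The part of these cells, or of cell division, in the results by number was not tested. In bulk RNA, fewer cells of a type and less RNA per cell cannot be told apart.

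Il4ra, the IL-4-binding chain, was the member that differed most between array numbers. Its log2 level was 9.91, 8.78 and 8.57 on the vehicle arrays numbered 1, 2 and 3. It was 9.84, 8.76 and 8.64 with LCN2 from day 7, and 9.89, 8.64 and 8.64 with LCN2 from day 0. The 3 arrays numbered 1 were the high ones and lay more than 1 log2 unit above the other 6, while the 3 groups covered the same range. The arrays numbered 1 were higher by 1.21 ± 0.08 (SE, n = 3 against 6 arrays), a 2.31-fold difference (limma with group in the model, adjusted p = 6.02e-05). If the arrays of a number share a source, this SE does not measure the scatter between sources. Within vehicle, LCN2 day 7 and LCN2 day 0 this difference was 1.23, 1.15 and 1.25. Array number took 99.4% of the sum of squares of Il4ra over the 9 arrays and group took 0.048%.

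Il13ra1, the partner chain of the receptor shared by IL-4 and IL-13, was dim. Its level ran from 4.96 to 5.31 on the vehicle arrays, from 4.74 to 5.17 with LCN2 from day 7 and from 4.70 to 5.14 with LCN2 from day 0, the array numbered 1 being the highest each time. All 9 values lay below the filter at 5.66, where an array resolves changes poorly. The arrays numbered 1 were higher by 0.34 ± 0.09 (limma on all 19505 genes without the filter, adjusted p = 0.0358). This call ended in 10 of 14 alternatives, over which the adjusted p ran from 0.0341 to 0.155. With each of 8 of the 9 arrays left out in turn it was lost, and without LCN2 day 7 replicate 2 it was kept (adjusted p = 0.0352), while the difference itself stayed between 0.32 and 0.37.

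Jak1, the kinase bound to the Il4ra chain, was the most even member. Its level was 8.11, 8.15 and 8.15 with vehicle, 8.21, 8.13 and 8.20 with LCN2 from day 7, and 8.15, 8.14 and 8.10 with LCN2 from day 0. No array or group stood out. The arrays numbered 1 differed by 0.01 ± 0.07 (95% confidence interval -0.16 to 0.18, limma adjusted p = 0.923), a sign that turns when each array is centred on its median (-0.025).

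Stat6, the signal-carrying transcription factor itself, varied little. Its level was 10.10, 10.18 and 10.23 with vehicle, 10.00, 10.12 and 10.29 with LCN2 from day 7, and 9.96, 10.12 and 10.08 with LCN2 from day 0. The array numbered 1 was the lowest of each group, at -0.11, -0.21 and -0.14 against the mean of the other two, but the difference of -0.15 ± 0.08 did not pass (95% confidence interval -0.33 to 0.02, limma adjusted p = 0.159).

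Irf4, a transcription factor of the IL-4 programme that dendritic cells and lymphocytes also use, had the widest range of the members that passed the filter, 1.53 log2 units over the 9 arrays. Its level was 7.60, 7.85 and 8.20 with vehicle. With LCN2 from day 7 it was 7.68, 7.39 and 8.26, and with LCN2 from day 0 it was 6.74, 7.86 and 7.62. The lowest array was LCN2 day 0 replicate 1 and the highest LCN2 day 7 replicate 3, and the groups overlapped. The arrays numbered 1 differed by -0.52 ± 0.20, which did not pass (limma adjusted p = 0.0733). It passed with robust variances fitted with a trend (adjusted p = 0.0309) and without LCN2 day 7 replicate 2 (-0.67, adjusted p = 0.0106). Without LCN2 day 0 replicate 1 the difference was -0.29, the smallest over the arrays left out. Array number took 42.9% of its sum of squares, group 23.3%, and 33.8% fell to neither, more than for any other member but Jak1.

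Klf4, a zinc finger factor that STAT6 induces in macrophages, was lower on the arrays numbered 1. Its level was 7.94, 8.51 and 8.60 with vehicle, 7.97, 8.20 and 8.49 with LCN2 from day 7, and 7.66, 8.53 and 8.60 with LCN2 from day 0. All 3 arrays numbered 1 lay below the other 6. The difference was -0.63 ± 0.11, or 1.55-fold lower (limma adjusted p = 0.00348), and it was -0.61, -0.38 and -0.91 within vehicle, LCN2 day 7 and LCN2 day 0.

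**Figure D1:**
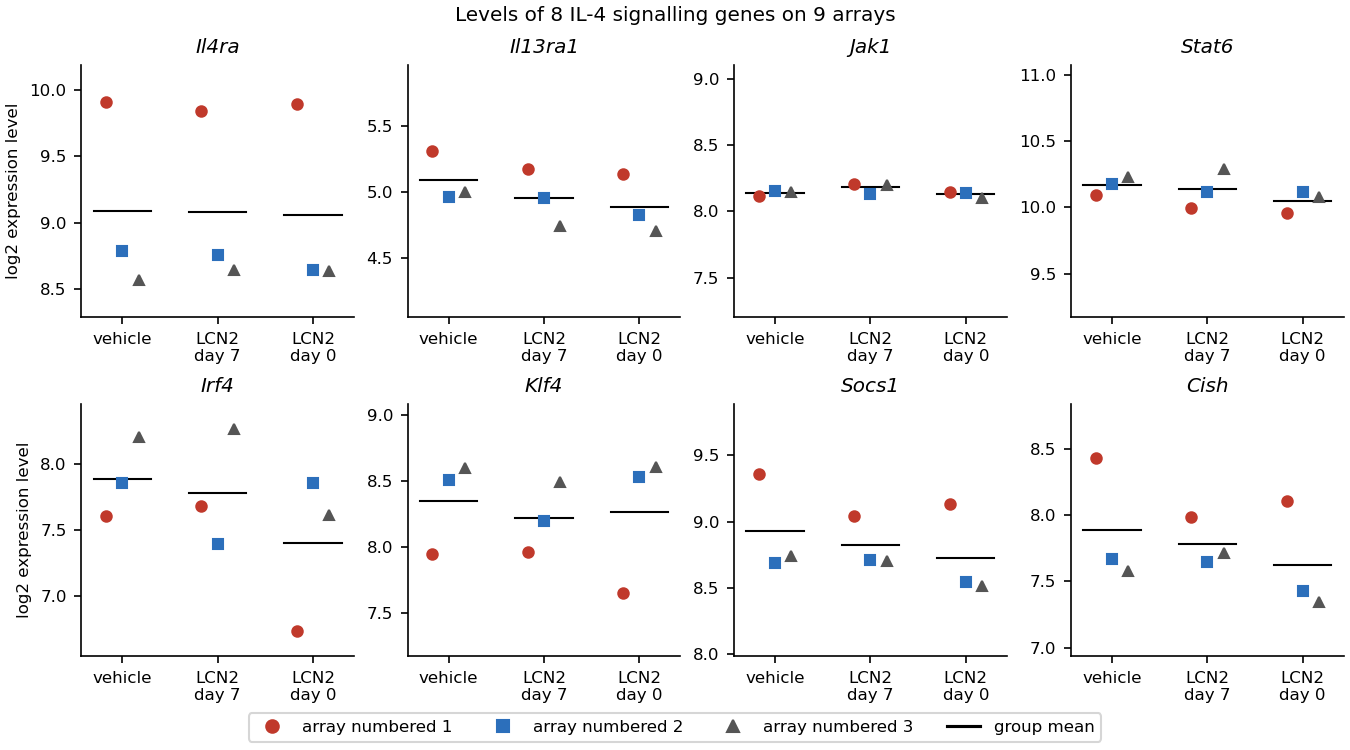
Log2 expression levels (vertical axis, with the same span of 1.9 units in each panel) of the 8 genes with a named probe set on the 9 arrays, by group (horizontal axis). Symbols and colours give the array number and the black line the group mean of 3 arrays. The arrays numbered 1 are the highest 3 for Il4ra, Il13ra1, Socs1 and Cish and the lowest 3 for Klf4, and Jak1 lies between 8.10 and 8.21 on all of them.

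Socs1, which blocks JAK kinases, was higher on the arrays numbered 1. Its level was 9.36, 8.69 and 8.74 with vehicle, 9.04, 8.71 and 8.71 with LCN2 from day 7, and 9.13, 8.54 and 8.52 with LCN2 from day 0. The 3 arrays numbered 1 lay above the other 6, and the 2 lowest values were the LCN2 day 0 arrays numbered 2 and 3. The difference by number was 0.53 ± 0.09, or 1.44-fold (limma adjusted p = 0.00289). Within vehicle, LCN2 day 7 and LCN2 day 0 it was 0.64, 0.33 and 0.60.

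Cish, a STAT-induced inhibitor of cytokine receptors, shared its 3 highest and 2 lowest arrays with Socs1. Its level was 8.43, 7.67 and 7.58 with vehicle, 7.99, 7.64 and 7.72 with LCN2 from day 7, and 8.10, 7.43 and 7.35 with LCN2 from day 0. The arrays numbered 1 were the 3 highest and the LCN2 day 0 arrays numbered 2 and 3 the lowest. The difference by number was 0.61 ± 0.11, or 1.53-fold (limma adjusted p = 0.00371), and it was 0.81, 0.31 and 0.72 within the groups in the order above. For both inhibitors the difference between array numbers was smallest in the LCN2 day 7 group. The same held for the size of this difference in Il4ra, Il13ra1, Irf4 and Klf4, but not in Jak1 and Stat6. The design, with 1 array of each number per group, does not test this.

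The promoters of Cish, Socs1 and Il4ra are shown because these 3 members were higher on the same arrays. Each is the window of 250 bases before to 50 after the start of the gene in RefSeq (GRCm38.p6), written 5′ to 3′ on the gene's strand. Capitals mark matches to 3 motifs. The first is TTCNNNGAA, a spaced palindrome that many STAT proteins bind. The second has the same ends, TTC and GAA, with 4 bases between them, the spacing STAT6 favours, and reads the same on both strands. The third is GAAA, any 2 bases and GAAA again, searched on both strands, a core bound by interferon regulatory factors. The windows lie at chr9:107296409-107296708 on the plus strand for Cish, chr16:10785487-10785786 on the minus strand for Socs1 and chr7:125552021-125552320 on the plus strand for Il4ra.
Cish: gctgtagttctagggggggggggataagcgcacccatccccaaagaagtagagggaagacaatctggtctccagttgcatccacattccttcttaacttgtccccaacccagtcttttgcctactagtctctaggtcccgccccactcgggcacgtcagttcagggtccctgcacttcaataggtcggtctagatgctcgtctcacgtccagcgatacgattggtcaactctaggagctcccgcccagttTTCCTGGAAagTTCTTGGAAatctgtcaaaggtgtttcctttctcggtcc
Socs1: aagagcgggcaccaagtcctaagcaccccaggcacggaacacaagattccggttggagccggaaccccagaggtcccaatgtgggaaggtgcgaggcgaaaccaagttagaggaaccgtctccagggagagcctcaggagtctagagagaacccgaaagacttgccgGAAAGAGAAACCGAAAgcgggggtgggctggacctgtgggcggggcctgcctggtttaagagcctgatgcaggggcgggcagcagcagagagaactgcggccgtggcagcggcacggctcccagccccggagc
Il4ra: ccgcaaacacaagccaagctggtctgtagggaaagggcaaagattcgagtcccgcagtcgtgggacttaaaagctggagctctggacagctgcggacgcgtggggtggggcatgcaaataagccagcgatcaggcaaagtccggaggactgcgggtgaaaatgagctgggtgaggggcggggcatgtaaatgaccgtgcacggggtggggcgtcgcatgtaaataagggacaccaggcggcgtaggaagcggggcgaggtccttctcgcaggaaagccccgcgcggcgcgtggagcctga

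The Cish window held TTCNNNGAA at bases 251 to 259 and 262 to 270, just after the annotated start. Of 32851 windows of this length in the table, 8.30% held this motif at least once and 0.457% held 2 or more. The Socs1 window held 2 overlapping matches to the paired GAAA, at bases 168 to 177 and 174 to 183, a motif found at least once in 3.44% of windows and 2 or more times in 0.225%. The motif with 4 bases between TTC and GAA, found in 6.95% of all windows, was in 0 of the 10 members' windows, and the Il4ra window held none of the 3 motifs. A match describes the letters and is no measured binding site.

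LCN2 from day 0 was compared with vehicle to see what the protein changes when it is present through differentiation. None of the 7 tested members passed, against 0% of all 10042 genes (limma, 0 members and 142 genes, 1.41%, at an unadjusted p under 0.05). All 7 lay below 0, with a median of -0.12 where that of all genes was -0.015. The values of the groups overlapped for all 7, so 0 members were free of overlap, against 5.49% of genes. Irf4 had the largest difference, from 7.89 ± 0.30 (SD, n = 3) with vehicle to 7.40 ± 0.59 with LCN2, or -0.48 ± 0.32 (SE, 95% confidence interval -1.20 to 0.23, limma adjusted p = 0.999). Between arrays of the same number it was -0.87, 0.003 and -0.59. The check of the pairing, given with the processing, does not tell number 2 from number 3. How a difference divides between the pairs numbered 2 and 3 is therefore not secured, here and for the other members. With each array left out in turn the difference of Irf4 ran from -0.71 to -0.15. The smallest value was without LCN2 day 0 replicate 1, where Cish (-0.50), Il4ra (-0.45) and Socs1 (-0.40) were farther from 0. Leaving that array out unbalances the numbers between the groups, so these values also carry the shift of the arrays numbered 1. Without vehicle replicate 1 instead, Il4ra was at 0.38. Between arrays of the same number, Il4ra differed by -0.01, -0.14 and 0.07. With all arrays, Cish differed by -0.26 ± 0.26 and Socs1 by -0.20 ± 0.23. The SEs in this paragraph are from the fit with groups alone. With array number added, the SE was 0.12 for Cish, 0.10 for Socs1 and 0.23 for Irf4. Their limma adjusted p-values were then 0.96, 0.97 and 0.963. Between arrays of the same number, Cish was lower on all 3 pairs (-0.33, -0.24 and -0.23), and so was Socs1 (-0.23, -0.15 and -0.23). Stat6 was the third of the 7 members that were lower on all 3 pairs (-0.14, -0.06 and -0.15), as were 15.4% of all genes. Stat6 differed by -0.12 ± 0.11, Klf4 by -0.09 ± 0.28, Il4ra by -0.03 ± 0.47 and Jak1 by -0.01 ± 0.09. The dim Il13ra1 differed by -0.20 ± 0.16 in the fit of all genes and was lower on all 3 pairs too (-0.17, -0.13 and -0.30). In the same comparison all 6 tested neutrophil and progenitor markers lay above 0, with a median of 0.48, as did 4 of 5 proliferation genes (0.13) and 2 of 4 monocyte markers (0.10). None of these markers was called, and their part in the members' values was not tested.

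LCN2 from day 7 was compared with vehicle to see what it changes in cells already differentiated, and shares the vehicle arrays with the comparison above. No member of the 7 passed, nor did any of 10042 genes (0%; limma, 0 members and 70 genes, 0.697%, at an unadjusted p under 0.05). The median of the members was -0.11, against 0.003 over all genes, and 6 of 7 lay below 0. Again 0 of 7 members had groups free of overlap, against 3.17% of genes. Klf4 differed by -0.13 ± 0.28, Socs1 by -0.11 ± 0.23, Irf4 by -0.11 ± 0.32 and Cish by -0.11 ± 0.26. Stat6 differed by -0.03 ± 0.11, Il4ra by -0.01 ± 0.47 and Jak1 by 0.04 ± 0.09, with Il13ra1 at -0.13 ± 0.16. For 0 of the 7 members did all 3 pairs of equal number differ in the same direction, against 21.7% of all genes. Cish, for instance, differed by -0.44 between the arrays numbered 1 and by -0.02 and 0.14 between the others. Without the arrays numbered 1, its difference was 0.06. Here too all 6 tested neutrophil and progenitor markers lay above 0 (median 0.45), with 5 of 5 proliferation genes (0.21) and 3 of 4 monocyte markers (0.34). Again 0 of these markers were called, and their part was not tested.

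**Figure D2:**
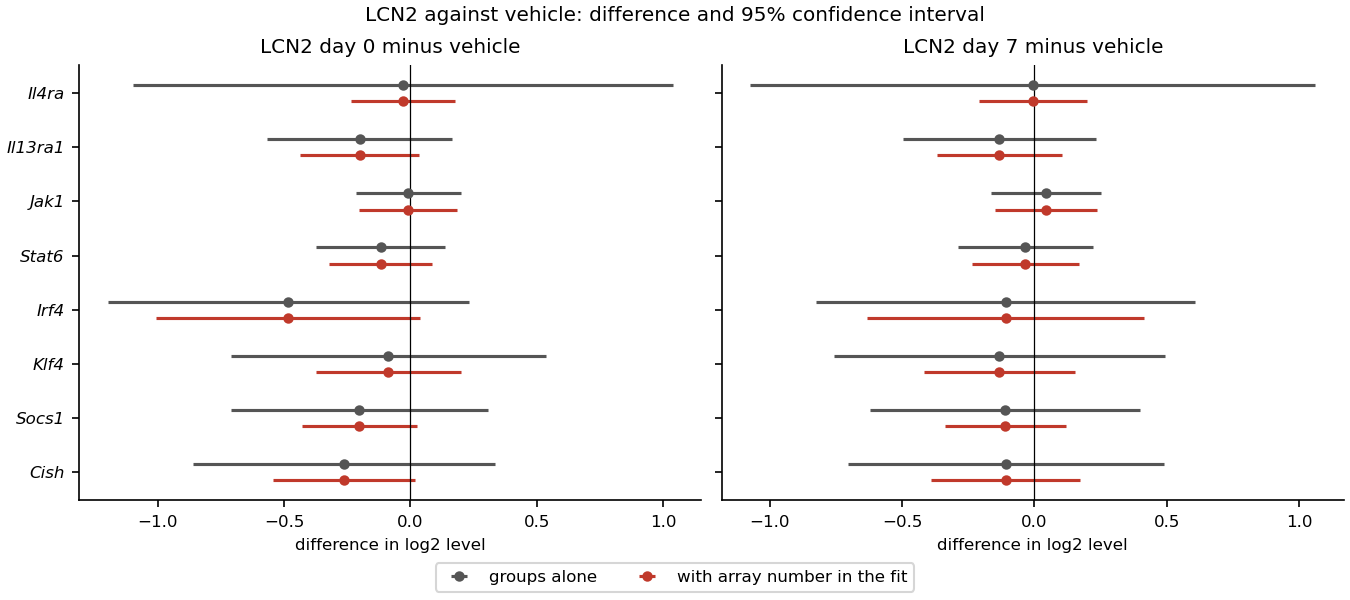
Difference in log2 level (horizontal axis) of LCN2 day 0 (left) and LCN2 day 7 (right) against vehicle for 8 genes, as points with 95% confidence intervals from limma, 3 arrays a group. Grey points are from the groups alone and red points add array number to the fit, which leaves each difference as it is and narrows the interval, for Il4ra from -1.10 to 1.04 to -0.23 to 0.18 in the left panel. Every interval includes 0.

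**Figure D3:**
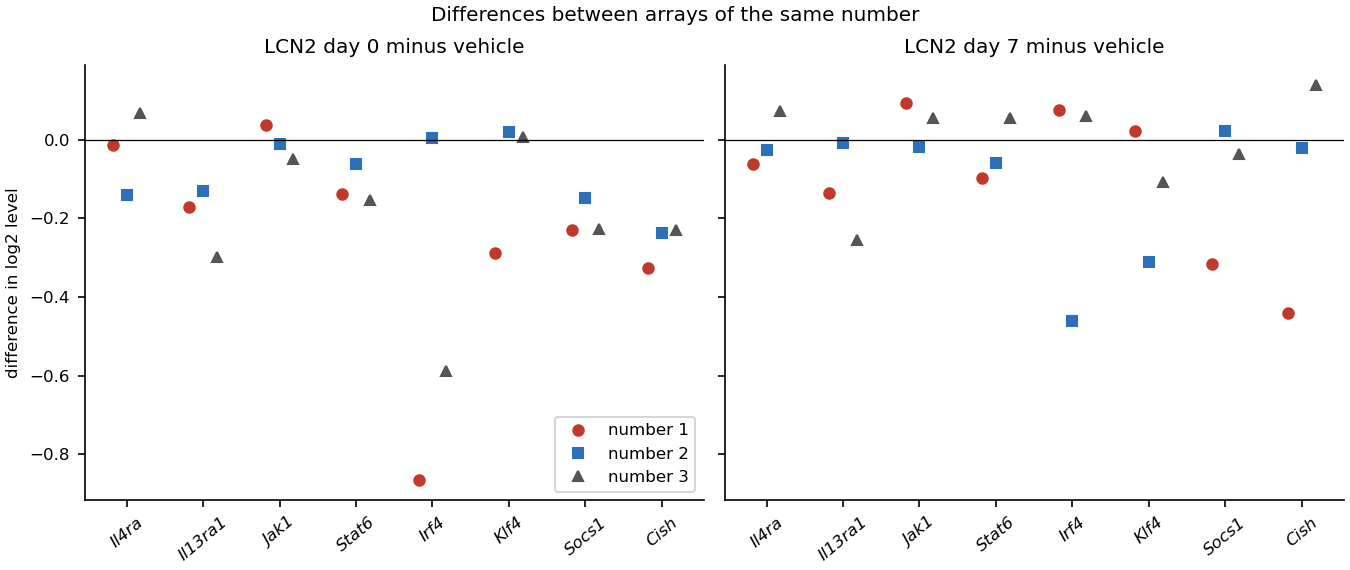
Difference in log2 level (vertical axis) between arrays of the same number, for LCN2 day 0 (left) and LCN2 day 7 (right) minus vehicle, 1 symbol for each number. In the left panel all 3 symbols lie below 0 for Il13ra1, Stat6, Socs1 and Cish, and those of Irf4 spread from -0.87 to 0.003.

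The LCN2 schedules were compared directly, which tests whether their differences from vehicle are unequal but does not separate time from dose. Again 0 of 7 members passed, against 0% of all genes (limma, 0 members and 177 genes, 1.76%, at an unadjusted p under 0.05). Irf4 was at -0.37 ± 0.32 for day 0 minus day 7 and Cish at -0.16 ± 0.26, with Socs1 at -0.09 ± 0.23, Stat6 at -0.08 ± 0.11, Jak1 at -0.05 ± 0.09, Il4ra at -0.02 ± 0.47 and Klf4 at 0.05 ± 0.28. Irf4 differed by -0.94 and -0.65 between the arrays numbered 1 and 3, and by 0.46 between those numbered 2. With both LCN2 groups averaged against vehicle, 0 of 7 members passed (0% of all genes; 0 members and 0.677% of genes at an unadjusted p under 0.05), and the F test over the 3 groups also called 0 of 7 (0% of genes; 0 members and 0.966% of genes at an unadjusted p under 0.05). In the order of their group means, vehicle was highest for Il4ra, Il13ra1, Stat6, Irf4, Klf4, Socs1 and Cish, and LCN2 day 7 for Jak1. The values of neighbours in that order overlapped for every measured member. With array number added to the fit, 0 of 7 members passed in any of these 5 comparisons (0% of genes), and 0 had an unadjusted p under 0.05. That threshold was met by 4.95% of genes for day 0 minus vehicle, 2.58% for day 7 minus vehicle, 5.37% for day 0 minus day 7, 3.11% for both LCN2 groups and 4.04% in the F test. The lowest unadjusted p of a member there was 0.0621, for Cish at day 0 minus vehicle. Its SE was 0.12 in that fit and 0.26 with groups alone.

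By array number, 4 of the 7 tested members passed, against 33.2% of all genes. At an unadjusted p under 0.05 it was 5 members, Irf4 in addition, against 45% of genes. The F test over the 3 numbers called the same 4 (23% of genes) and put 5 under 0.05 before adjustment (36.8% of genes), but 1 of 7 without vehicle replicate 1 or without LCN2 day 0 replicate 1. Il4ra, Cish and Socs1 were higher on the arrays numbered 1, 3 of 7 where 11% of all genes were, and Klf4 was lower, 1 of 7 where 22.1% were. The 3 arrays numbered 1 did not overlap the other 6 for these 4 members, as for 35.4% of all genes. The median of the members was 0.01 and that of all genes -0.06. With each array left out in turn, 4 to 5 of the 7 passed for number 1 against the others, these 4 among them. The receptor chain and both inhibitors thus lay on the high side of the same arrays, while Jak1 and Stat6 did not pass. Between numbers 2 and 3, 0 members passed (0% of genes; 0 members and 3.09% of genes at an unadjusted p under 0.05).

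**Figure D4:**
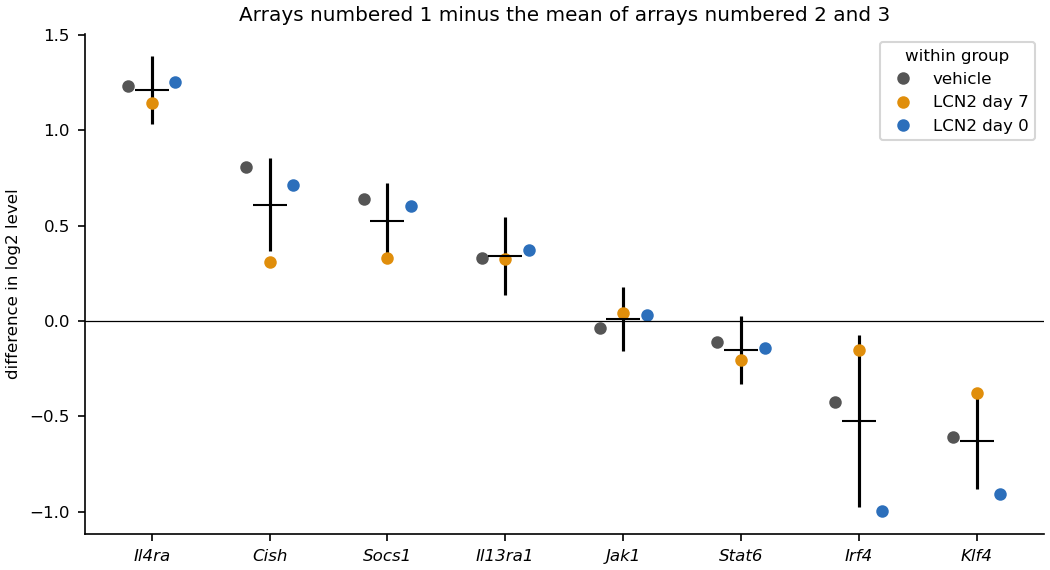
Difference in log2 level (vertical axis) of the arrays numbered 1 minus the mean of those numbered 2 and 3, for 8 genes ordered by size. Coloured points are the differences within each group, and the black mark and bar are the limma estimate and its 95% confidence interval. Il4ra lies between 1.15 and 1.25 in all groups, Jak1 around 0, and Klf4 between -0.91 and -0.38.

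The wider pathway was followed through 5 lists of related genes in the same comparisons. In the comparisons between the groups, 0 genes of any list passed. The lists' medians for LCN2 from day 0 minus vehicle lay between -0.08 and -0.04, where all genes had -0.015. The 2 genes with the smallest p in each list for LCN2 from day 0 lay on both sides of 0, each at a limma adjusted p of 0.999. Above 0 were F13a1, a coagulation factor subunit that IL-4 induces in macrophages, at 0.35 ± 0.17, and Il15ra, the IL-15-binding receptor chain, at 0.29 ± 0.17. Below 0 were the chemokine Ccl17 at -0.39 ± 0.17, Batf, a partner factor of Irf4, at -0.34 ± 0.14, Batf3 at -0.29 ± 0.15, the phosphatase gene Ptpn2 at -0.24 ± 0.14, the adaptor gene Shc1 at -0.23 ± 0.12, the kinase subunit gene Pik3cb at -0.21 ± 0.12, the shared receptor chain Il6st at -0.08 ± 0.11 and the inhibitor Socs2 at -0.78 ± 0.58. For LCN2 from day 7, F13a1 was at 0.25 ± 0.17, Ccl17 at -0.36 ± 0.17, Batf at -0.20 ± 0.14 and Batf3 at -0.22 ± 0.15. These SEs are from the fit with groups alone. With array number added, the SE for LCN2 from day 0 was 0.19 for Socs2, 0.11 for Ccl17 and 0.10 for Batf. Their limma adjusted p-values were then 0.878, 0.944 and 0.96.

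By array number, the lists' counts are read against the 11% of all genes that were higher on the arrays numbered 1, the 22.1% that were lower and the median of all genes of -0.06. The lists were chosen with earlier results of these data known, so a count above these shares is a description and no independent result. Of the receptor and ligand genes, 4 of 9 tested were higher and 0 were lower, with a median of 0.33. Il21r, a receptor that pairs with the common gamma chain, was higher by 2.10 ± 0.18, or 4.28-fold (limma adjusted p = 0.000195), at 9.39 to 9.71 against 7.09 to 7.96. Il7r, another partner of that chain, was higher by 0.65 ± 0.11, Crlf2, which pairs with Il7r in the receptor for the cytokine TSLP, by 0.86 ± 0.14, and Csf2rb, the common beta chain of the receptor for GM-CSF, by 0.50 ± 0.09. Another 6 receptor and ligand genes, Il4 and Il2ra among them, were dim.

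Of the proximal signalling genes, 1 of 20 was higher and 5 were lower, with a median of -0.10, which is near the share of all genes. Jak2, a kinase of cytokine receptors, was higher by 0.74 ± 0.11 (1.67-fold, limma adjusted p = 0.00164). Pik3cg and Pik3r1, subunits of phosphoinositide 3-kinases, were lower by 1.55-fold and 1.33-fold, and Tsc1, a brake on mTOR, was lower by 1.40-fold. Of the other negative regulators, 2 of 17 were higher and 3 lower, with a median of -0.13, again near the share of all genes. Socs2, of the same family as Socs1 and Cish, was higher by 1.43 ± 0.17, or 2.69-fold (limma adjusted p = 0.000721), at 9.27 to 9.66 against 7.20 to 8.44, and Rnf128, a ubiquitin ligase, by 0.52 ± 0.12. The tyrosine phosphatase gene Ptpn6 was at -0.43 ± 0.08 and the ubiquitin ligase gene Cblb at -0.32 ± 0.08.

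Of the downstream transcription factors, 11 of 22 were higher, against 11% of all genes, and 4 were lower, against 22.1%, with a median of 0.29. Prdm1, a transcriptional repressor, was higher by 1.25 ± 0.15, Nr1h3, the sterol-sensing nuclear receptor LXR alpha, by 1.04 ± 0.13, and Egr2, an IL-4-induced factor, by 0.85 ± 0.11. Maf was at -0.95 ± 0.14. Of the IL-4 target genes, 11 of 26 were higher and 5 lower, with a median of 0.19, and the count of lower genes was near the share of all genes. Ccl24, an eosinophil-attracting chemokine, was higher by 2.44 ± 0.18, or 5.41-fold (limma adjusted p = 0.00012), Ctsk, a collagen-degrading protease, by 1.97 ± 0.15, and the chitinase-like gene Chil3 by 1.51 ± 0.09. Cdh1, which encodes E-cadherin, was lower by 2.96-fold.

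**Figure D5:**
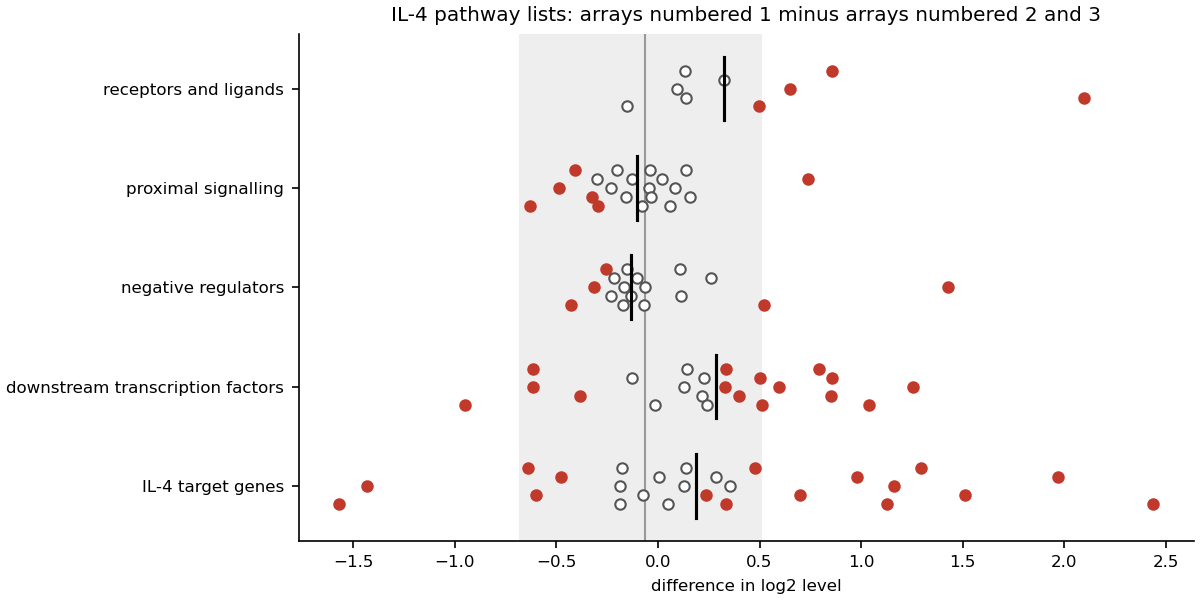
Difference in log2 level (horizontal axis) of the arrays numbered 1 minus the mean of those numbered 2 and 3, 1 point a gene, in 5 lists of IL-4 pathway genes. Red points passed at an adjusted p of 0.05 and open points did not, black bars are list medians, and the grey line and band mark the median and the 5th to 95th percentile of all 10042 genes. Il21r at 2.10, Socs2 at 1.43 and Ccl24 at 2.44 lie farthest to the right in their lists.

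For the 3 members of widest range, the genes with the most similar log2 levels over the 9 arrays were looked up among all 10042. Cish was most like Socs1, its fellow inhibitor, with a Pearson r of 0.99 over 9 arrays and 0.89 over the 6 arrays numbered 2 and 3. H2-T23 (0.98 and 0.95) and Cdk18 (0.98 and 0.89) followed. Over those 6 arrays H2-T23 was thus closer to Cish than Socs1 was. Il4ra was most like Pde4b, a cyclic AMP phosphodiesterase (0.996 over 9 arrays and 0.98 over 6), then Zc3h12a, an RNase that degrades inflammatory transcripts (0.995 and 0.74), and the lysosomal enzyme gene Fuca1 (0.994 and 0.85). Irf4 was most like Ppm1b (0.98 and 0.99), Mitd1 (0.98 and 0.97) and Pdia6 (0.97 and 0.92). These values are descriptions, since the arrays share the shift of number 1 and the genes were picked as the highest of all.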

How the data were processed

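Mouse macrophage RNA, amplified and labelled with biotin, was measured on 9 arrays, 3 in each of 3 groups. Values are the authors' deposited log2 levels of 22203 probe sets. The submitters' processing notes name oligo, an R package for arrays, and RMA, with no versions. RMA corrects background, makes the arrays' distributions alike (medians 5.60 to 5.69) and summarises probes, and can shrink shifts common to all genes. Of the probe sets, 19572 had 1 gene symbol, 0 several and 2631 none, and the probe set with the highest mean stood for a gene. Probe sets with a mean below the median of all (5.66) were left out, which left 10042 genes. A level describes 1 probe set and is not compared between genes.

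All 9 arrays entered a single limma fit (version 3.58.1, under R 4.3.3) with 1 mean per group, with Benjamini-Hochberg adjustment over all genes tested and a threshold of 0.05. Array numbers were compared with group in the model. All 9 correlations between the deviations of same-numbered arrays of different groups exceeded 0.1 (0.16 to 0.82), so the number from the titles was taken to pair the arrays. The 6 correlations between arrays numbered 2 and 3 of different groups exceeded 0.1 as well (0.20 to 0.69), so this check sets number 1 apart and does not tell number 2 from number 3. Il13ra1 was tested without the filter. Only the fit with array number in it was run on simulated data, for LCN2 day 0 minus vehicle and number 1 against the others. The noise in those data held no shift by number, and the fit with groups alone was not simulated. All 10 members and, from each list, the 4 genes that differed most by number and the 2 with the smallest p in each LCN2 comparison with vehicle were eligible to be named. Members, lists and the number comparison were chosen with earlier results of these data known. Alternatives were the replicate block, other filters, centring, variance settings, probe-set averaging, fewer groups and each array left out. The number of arrays limits the precision.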

Additional observations from a re-analysis of the deposited data

How the results depend on the processing

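In every alternative run, 0 of the 7 tested members and 0 genes passed between the groups. Pairing the arrays through their number as a replicate block gave 0 genes and 0 members in each group comparison and changed no call. The calls of Il4ra, Socs1, Cish and Klf4 by number held in all alternatives that tested them, with adjusted p-values of at most 0.0339; the stricter filter left Cish and Irf4 out and 3 members called. With each array left out in turn, the count of genes by number ran from 1777 to 3612 (3333 with all arrays) and the F test over the 3 title numbers from 785 to 2611 (2307 with all arrays), with 1 to 5 members called.

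Several uncalled differences changed sign. With the arrays centred on their medians, Il4ra was at 0.021 for LCN2 day 7 minus vehicle and Jak1 at -0.025 by number. With the arrays numbered 2 and 3 only, chosen after seeing the data, Klf4 was at 0.013 for day 0 minus vehicle, and Il4ra was at 0.022 and Cish at 0.058 for day 7 minus vehicle. Leaving out 1 array unbalances the numbers between groups. For day 0 minus vehicle it gave -0.45 to 0.38 for Il4ra, -0.40 to 0.012 for Socs1, -0.50 to 0.0053 for Cish, -0.29 to 0.22 for Klf4 and -0.020 to 0.0078 for Jak1. For day 7 minus vehicle it gave -0.39 to 0.40 for Il4ra, -0.23 to 0.10 for Socs1, -0.27 to 0.16 for Cish, -0.35 to 0.084 for Irf4 and -0.11 to 0.034 for Stat6. For day 0 minus day 7 it gave -0.44 to 0.36 for Il4ra, -0.19 to 0.041 for Il13ra1, -0.12 to 0.35 for Klf4 and -0.29 to 0.020 for Socs1. By number, Jak1 ran from -0.0035 to 0.035. Signal near background limits Il13ra1, which was tested without the filter, a choice made after seeing the data.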
